A study of Drosophila melanogaster with 37 samples.

Results

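The libraries described here are the 2 PolyA (mRNA) libraries made from the testis of Canton-S males, which were set against the 10 PolyA libraries of the other 5 groups (male body, male head, ovary, female body and female head, with replicates 1 and 2 of each). They belong to a series of 37 samples, of which these 12 were used. All of these flies were untreated wild type of an isogenic Canton-S strain and were taken about a day after eclosion. According to the study's methods, the sample named testis was the complete internal reproductive tract of the male, in which accessory glands, ejaculatory duct and seminal vesicles come together with the testes, so germ cells and secretory epithelia were measured as one. Which organs stayed in the body samples is not given in the sources used here. No label says whether replicates 1 and 2 came from separate pools of flies, so the p-values measure only the spread between these libraries. For each of 17559 genes, the testis mean was compared with the highest mean of the other 5 groups. The unit was TPM, an abundance of transcripts divided by their length and scaled to the same total of 1000000 in every library. Because whole organs were sequenced, fewer cells of a type and less RNA per cell cannot be told apart.

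The deposited coverage divided by the deposited FPKM gave between 9.26 and 12.5 gigabases of aligned sequence per library. Of the 17559 genes, 11057 and 11829 reached 1 TPM in testis 1 and 2, 11847 and 12731 in male body 1 and 2, and between 8356 and 9892 in the other 8 libraries. The mitochondrial transcript mt:ATPase8 took 15.7% of the TPM in testis 1 and was listed at 0 in testis 2. It took 46.9% in male body 1 and was listed at 0 in male body 2, and it ranged from 0 to 57.6% among the other 8 libraries. As all values of a library add up to that fixed total, a high share of 1 transcript takes TPM from the rest, and the counts were therefore repeated without the mitochondrial genes.

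In Drosophila males, germline stem cells divide into spermatogonia, which enter a long spermatocyte stage. Spermatocytes turn on a large program of testis genes through a testis form of the meiotic arrest complex and testis TATA-binding protein associated factors, and the messages are stored until the spermatids need them. Spermatids then exchange histones for protamine-like proteins and build a long tail with giant mitochondrial derivatives. The accessory gland and the ejaculatory duct and bulb secrete the seminal fluid proteins that are passed to the female at mating.

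More than 50% of the TPM of each testis library came from genes with at most 5% of the testis level in heads, ovary and female body, and most of these genes were also found in male body at a lower level. In all, 2179 of 12882 genes tested were higher in testis than in every one of the other 5 groups, and 205 were lower. The test was limma on log2(TPM + 1), with the largest of the 5 p-values Benjamini-Hochberg adjusted and called under 0.05, and the background shares over all genes tested were 16.9% called higher and 1.59% called lower. Male body was the highest of the other groups for 2170 of the 2179 genes. Their median level in male body was 34.9% of the testis level. Of the 2179 genes, 2124 differed by at least 2-fold and 25 by at least 4-fold from the highest other group. With the replicate number as a block in the fit, the lower calls rose from 205 to 1050, a background of 8.15%, and the higher calls were 2994 (23.2%). With male body set aside and the other 4 groups compared, 3058 genes were higher (23.7%) and 602 lower (4.67%). Higher calls were 91.4% of all calls, but 72.1% on FPKM, 53.2% without the mitochondrial genes and 60.4% after quantile normalization. With a pseudocount of 0.1 the balance turned, with 5 higher and 27 lower calls (15.6% higher). Without testis 2 the higher calls were 1034 and without male body 1 they were 1077, and without testis 1 or testis 2 the lower calls were 49 or 75.

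**Figure D1:**
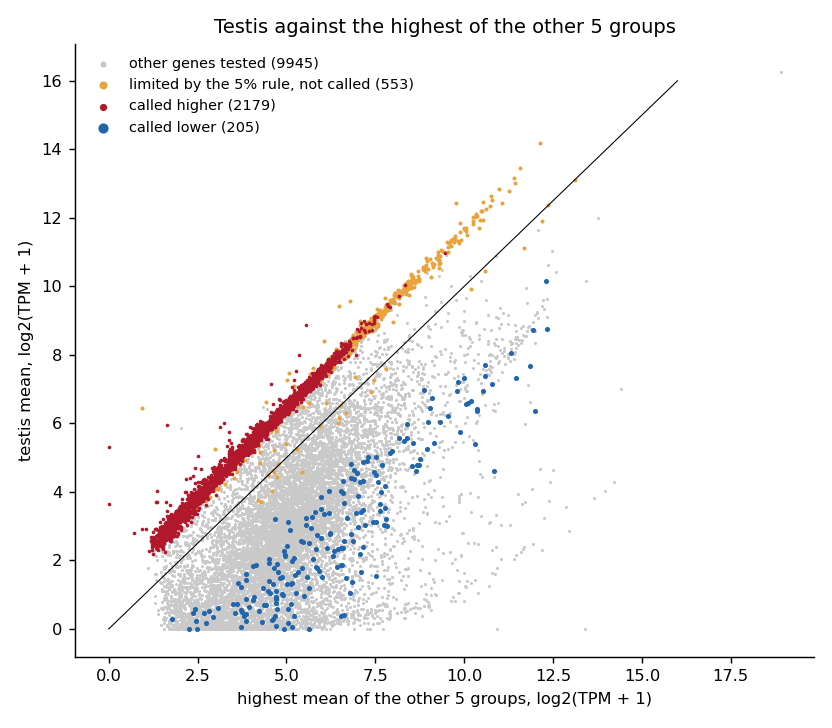
Each point is one of the 12882 genes tested, with the mean TPM of the 2 testis libraries on the y axis and the highest mean of the other 5 groups on the x axis, both as log2(TPM + 1). The red points (called higher, 2179) and the orange points (limited to testis by the 5% rule, not called, 553) form a band parallel to the line of equal levels, and the blue points (called lower, 205) lie below it.

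Presence in testis at 10 TPM or more together with less than 1 TPM in all 5 other groups was met by 3 genes, CG42661, CG42456 and CG42306. Each of them has the same first base, last base and strand in the tables as another gene, a state shared by 310 of the 17559 genes (1.77%). Reads over such a span were divided between its genes differently from library to library. CG42661 stood at 57.2 and 20.8 TPM in the testis libraries and was listed at 0 in the other 10, but the sum with Tsp66A and CG42660, which fill the same span, was 58.9 and 95.8 TPM in testis and 22.3 and 36.7 TPM in male body. CG42456 stood at 7.94 and 14.9 TPM in testis and was listed at 0 in the other 10 libraries, while the other gene of that span, CG12016, stood at 0.00364 and 0.0104 TPM in testis and between 10.8 and 41.2 TPM elsewhere. The sum over the CG42456 span, 7.94 and 14.9 TPM, was lower in testis 1 than in every other library. CG42306 stood at 1.80 and 170.1 TPM in testis, but its span with Gint3 stood at 120.4 and 172.0 TPM in testis and 59.8 and 88.5 TPM in male body. Summed over 17396 spans, a view added after these values were seen, 0 spans met the strict rule.

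With male body left aside, 1476 genes had a testis mean of at least 10 TPM and less than 1 TPM in heads, ovary and female body. The highest testis mean among them was 763 TPM, since genes of higher level kept more than 1 TPM in the other libraries. The 10 with the highest testis means were CG17770, CG32298, CG15892, CG5790, Menl-2, CG31952, CG15635, CG15256, CG13385 and CG15286. With the block CG17770 (adjusted p = 0.060, and 0.033 with the block) and CG32298 (0.061 and 0.028) were called higher. Both share a span with another gene, CG17770 with Acam and CG32298 with CG32299. In ovary the summed spans stood at 10.6 and 2.46 TPM and at 4.80 and 1.36 TPM, so neither span met the rule. The listed values of these genes therefore depend on how reads were divided. Menl-2 also shares a span. Around the limits, Cby (testis mean 10.03 TPM), CR45903 (10.03 TPM) and CR43471 (10.06 TPM) were just inside and dila (9.99 TPM), CG11269 (9.96 TPM) and CR44200 (9.96 TPM) just outside. By the highest of the other 4 groups, CG43290 (0.9994 TPM), CG16848 (0.9983 TPM) and CG9861 (0.998 TPM) were just inside and Tengl1 (1.001 TPM), CG31275 (1.003 TPM) and CR45113 (1.003 TPM) just outside.

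A relative rule was therefore added after the data were seen, a testis mean of at least 10 TPM with no more than 5% of that mean in each of the 4 groups other than male body. It took in 2249 genes, of which 1463 were also among the 1476, and at 2% it took in 2089. Of the 6410 genes with a testis mean of at least 10 TPM these are a minority, but they made up 59.4% and 61.5% of all TPM in testis 1 and 2, and 19.7% and 23.4% in male body 1 and 2. There were 122 genes at 1000 TPM or more and 970 at 100 TPM or more. The highest was Acp95EF, an accessory gland peptide gene, at 27240 and 10110 TPM in testis and 6370 and 2678 TPM in male body. CG42481 followed with 14650 and 7965 TPM in testis, and CG18628 with 8048 and 10470 TPM. These 3 genes, taken for their high testis level, stood above every library of the other 5 groups in both testis libraries. That held for 24.1% of all genes tested. With the block Acp95EF (adjusted p = 0.55, and 0.025 with the block) and CG18628 (0.064 and 0.022) were called higher.

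The low levels of these 2249 genes differed between the other libraries more than 10-fold in the median. The median level as a percent of the testis library of the same number was 1.13 in ovary 1 and 0.230 in ovary 2. It was 0.508 and 0.0383 in female body, 0.198 and 0.0408 in male head and 0.215 and 0.0385 in female head. Within a library the genes spread widely, with quartiles of 0.125 and 0.361% in male head 1 and of 0 and 0.154% in male head 2, where 826 genes were listed at 0. In female body 2 the count listed at 0 was 987. For the 122 genes at 1000 TPM or more the quartiles were closer, 1.04 and 1.12% in ovary 1 and 0.148 and 0.191% in male head 1. Replicate 1 was the higher in all 4 groups, and the cause was not tested.

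The fraction of the testis level that also showed in male body was given for each gene and replicate. Over the 2249 genes the median was 33.2% (quartiles 30.1 and 36.8) in replicate 1 and 36.2% (33.6 and 39.0) in replicate 2. For the spermatid list the medians were 30.5 and 35.7%, for the accessory gland list 32.99 and 39.32% with members up to 82.8 and 151.8%, and for the limited Y-linked genes 38.2 and 32.7%, and differences between lists were not tested. Among 1393 genes with a testis mean of at least 50 TPM and values above 0 in all 4 male libraries, 1305 (93.7%) had both fractions between 25 and 45%. There were 15 genes with both fractions above 50% and 6 with both under 25%. A further 9 genes were listed at 0 in one of the 4 libraries, and 7 of those 9 share a span with another gene. Summed over spans, 1310 of 1392 (94.1%) lay between 25 and 45%, 15 above 50%, 3 under 25% and 2 at 0.

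**Figure D2:**
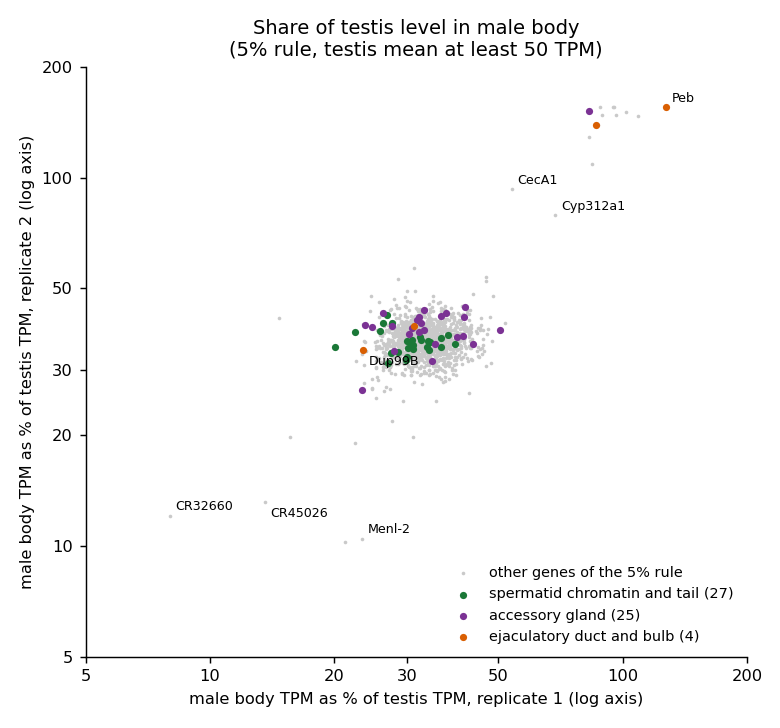
Each point is a gene of the 5% rule with a testis mean of at least 50 TPM, with the male body TPM as a percent of the testis TPM in replicate 1 on the x axis and in replicate 2 on the y axis, both on log axes cut at 5 and 200%. Of the genes, 1389 are drawn and 13 fall outside. Most lie in one cloud between 25 and 45%, spermatid (green) and accessory gland (purple) genes alike. A second small group, with the ejaculatory bulb genes Peb and PebII, lies above 80%. Orange marks the whole ejaculatory duct and bulb list, and its other members, such as Dup99B (23.5 and 33.9%), lie outside that group.

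Of the 15 genes with fractions above 50%, 8 are named for the seminal fluid, the accessory gland or the ejaculatory bulb. Peb, an ejaculatory bulb protein that forms part of the mating plug, stood at 1557 and 2922 TPM in testis and 1988 and 4528 TPM in male body. PebII, of the same organ, stood at 8008 and 2642 TPM in testis and 6891 and 3658 TPM in male body. Sfp60F, a seminal fluid protein gene, stood at 12690 and 4870 TPM in testis and 11080 and 6744 TPM in male body. These 3 genes lie on chromosome 2R between positions 25172245 and 25176715 (dm6), on the minus strand. Male body was above testis in both replicates for Peb and in replicate 2 alone for PebII and Sfp60F.

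Another 4 of the 15 lie on chromosome 2L between positions 3667977 and 3693905 (dm6), also on the minus strand. Acp24A4 stood at 1707 and 1090 TPM in testis and 1414 and 1655 TPM in male body, and Sfp24Bb at 1034 and 918 TPM in testis and 912 and 1429 TPM in male body. Sfp24Ba and Sfp24Bc had fractions of 95.4 and 154.9% and of 83.0 and 129.0%. Sfp87B stood at 3810 and 3829 TPM in testis and 3676 and 5658 TPM in male body. CG43251, Elo68alpha, CG2663, CG6788 and the non-coding CR32496 also had both fractions above 80%. Cyp312a1 (68.8 and 79.1%), a cytochrome P450, and CecA1 (53.9 and 92.8%), the antimicrobial peptide Cecropin A1, lay between the groups. None of the 15 shares a span with another gene. In all 15 the fraction was higher in replicate 2 than in replicate 1.

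The genes with fractions under 25% were led by non-coding RNAs. CR32660 stood at 532.9 and 397.3 TPM in testis and 42.8 and 48.0 TPM in male body, 8.02 and 12.1% of testis. It was higher than the highest other group by 3.32 on the log2 scale (SE 0.56, limma, adjusted p = 0.0040). CR45026 stood at 62.5 and 64.1 TPM in testis and 8.52 and 8.43 TPM in male body (log2 difference 2.76, SE 0.21, adjusted p = 0.00097). CR45056 stood at 40.5 and 64.5 TPM in testis and 6.32 and 12.7 TPM in male body. CR32660 lies within Sclp on the same strand and CR45026 lies antisense to Pmi and PGRP-LD, and with no strand stated for the PolyA libraries the reads of overlapping genes cannot be told apart.

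Of the other low fractions, Menl-2 (23.4 and 10.5%), CG34178 (21.2 and 10.2%) and Pif1B (22.5 and 19.1%) share spans. Summed with Menl-1, the Menl-2 span stood at 37.0 and 26.0% in male body, and the CG34178 span with CG34177 at 27.9 and 26.5%. The Pif1B span with Pif1A stood at 54.6 and 53.5%. In male head that span stood at 108.9 and 105.5 TPM, but Pif1B alone at 0.450 and 1.52 TPM. The summed fraction therefore includes Pif1A, a gene also present in heads, and cannot stand for Pif1B. Of the 10 largest differences among the genes called higher, 6 were on shared spans. The 4 others were CR32660, CR45026, CR45031 and Spn53F. Spn53F, a serpin gene, stood at 18.81 and 45.96 TPM in testis and 2.50 and 6.80 TPM in male body, 2.54 higher on the log2 scale (SE 0.43, adjusted p = 0.0042). The non-coding CR45031 stood at 14.3 and 16.1 TPM in testis, at 3.08 TPM in male body 1 and was listed at 0 in male body 2.

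Gene lists written from textbook roles describe the cells behind these levels. They were chosen with earlier results of these data known, so their counts are not independent of the data. All 27 genes of the spermatid list (protamines, tail and mitochondrial derivative proteins) were limited to testis by the 5% rule, and both testis libraries stood above the other 10 libraries for all 27. For single genes without a test, that held for 24.1% of all genes tested. Only 2 of the 27 were called higher than all 5 groups, 18 with the replicate block and 27 with male body left aside. Over all genes tested the same fits called 16.9, 23.2 and 23.7%. Summed, the list stood at 34870 and 33080 TPM in testis and 9943 and 11790 TPM in male body. Its median log2 difference to the highest other group was 1.60, beside -1.47 over all genes tested.

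Mst84Da, whose product belongs to the sperm tail, had the highest level of this list with 4614 and 2787 TPM in testis and 926 and 965 TPM in male body. The protamine gene Mst35Bb stood at 1231 and 879 TPM in testis and 353 and 295 TPM in male body, and Mst77F, a linker histone-like gene of condensing sperm nuclei, at 1725 and 2027 TPM and 526 and 726 TPM. In all 3 the testis libraries were above both male body libraries, and the other 8 libraries stayed at or below 46.7 TPM. With the block Mst35Bb (adjusted p = 0.27, and 0.025 with the block) and dj (0.19 and 0.019) were called. The gene dj (don juan), of the sperm tail, stood at 1275 and 1190 TPM in testis and 380 and 379 TPM in male body. betaTub85D, the testis beta-tubulin, stood at 1169 and 1851 TPM in testis and 425 and 677 TPM in male body. Fzo, the mitofusin that fuses spermatid mitochondria, stood at 64.2 and 90.2 TPM in testis and 25.2 and 31.9 TPM in male body, and it was called (log2 difference 1.40, SE 0.31, limma, adjusted p = 0.014). The S-Lap genes of the list, leucyl aminopeptidases of the mitochondrial derivatives, stood at 799 to 1883 TPM in testis except for S-Lap5, which stood at 92.1 and 159.8 TPM and was the other gene called (adjusted p = 0.040). The protamine, Mst84D and S-Lap families have close copies, among which reads can be shared.

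Regulators of the spermatocyte program were present at lower levels. Of 14 genes tested on the meiotic arrest list, 8 were called higher than all 5 groups and 12 with the block. The shares over all genes tested were 16.9 and 23.2%. The testis-specific TAF gene Taf12L stood at 82.0 and 77.9 TPM in testis and 26.1 and 31.3 TPM in male body, and all other libraries were at or below 1.37 TPM (log2 difference 1.45, SE 0.27, adjusted p = 0.0065). The other testis TAFs nht (16.6 and 22.2 TPM, adjusted p = 0.0054), can (8.17 and 13.2 TPM, adjusted p = 0.0082) and sa (27.5 and 44.2 TPM, adjusted p = 0.021) were called too. So were wuc, topi, tomb and vis of the testis meiotic arrest complex. Wuc was the highest of these with 49.73 and 41.96 TPM in testis and 15.96 and 15.69 TPM in male body (adjusted p = 0.0044). In the head libraries these 8 genes had at most 0.593 TPM, and tomb alone passed 1.37 TPM in the other libraries without the male tract, with up to 6.71 TPM.

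Some members of that list were not limited to the male. Bol, an RNA-binding protein needed for meiotic entry, stood at 454 and 819 TPM in testis and 175 and 313 TPM in male body, but also at 45.7 to 106.6 TPM in the 4 head libraries (adjusted p = 0.17, and 0.0057 with the block). Twe, the meiotic Cdc25 phosphatase of both sexes, stood at 50.6 and 77.6 TPM in testis and 24.1 and 99.3 TPM in ovary, so the groups overlapped. Another gene of the list, aly, is given here only for its call as higher than all 5 groups, gained with the block. It stood at 8.935 and 18.02 TPM in testis (adjusted p = 0.053, and 0.012 with the block).

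The Y chromosome carries genes that are used in spermatocytes. Of 9 tested on the Y-linked list, 8 were called higher, beside 16.9% of all genes tested. Over all 24 Y genes tested, 18 were called, 75%, and 19 met the 5% rule. Ccy stood at 39.9 and 37.7 TPM in testis and 15.2 and 10.5 TPM in male body (log2 difference 1.54, SE 0.26, adjusted p = 0.0041). ARY, an aldehyde reductase gene, stood at 26.3 and 32.0 TPM in testis and 8.49 and 9.35 TPM in male body (adjusted p = 0.0024), and the phosphatase gene Pp1-Y2 at 30.01 and 31.79 TPM in testis and 10.6 and 10.8 TPM in male body (adjusted p = 0.0026). In all 3, as in all 2179 genes called higher, both testis libraries were above male body. The other 8 libraries were at or below 0.450 TPM. The dynein heavy chain genes kl-2, kl-3 and kl-5 had 1.48 to 6.95 TPM in testis, and kl-2 and kl-3 were below the level tested. The exception was fdy, with 25.2 and 33.3 TPM in testis and 96.1 and 44.1 TPM in ovary. Females carry no Y, and fdy shares its sequence with a gene elsewhere in the genome, so its value is uncertain. All 8 called genes had the higher male body fraction in replicate 1 (32.2 to 47.0%, beside 25.1 to 35.3% in replicate 2), whereas the median over the 2249 limited genes was higher in replicate 2.

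**Figure D3:**
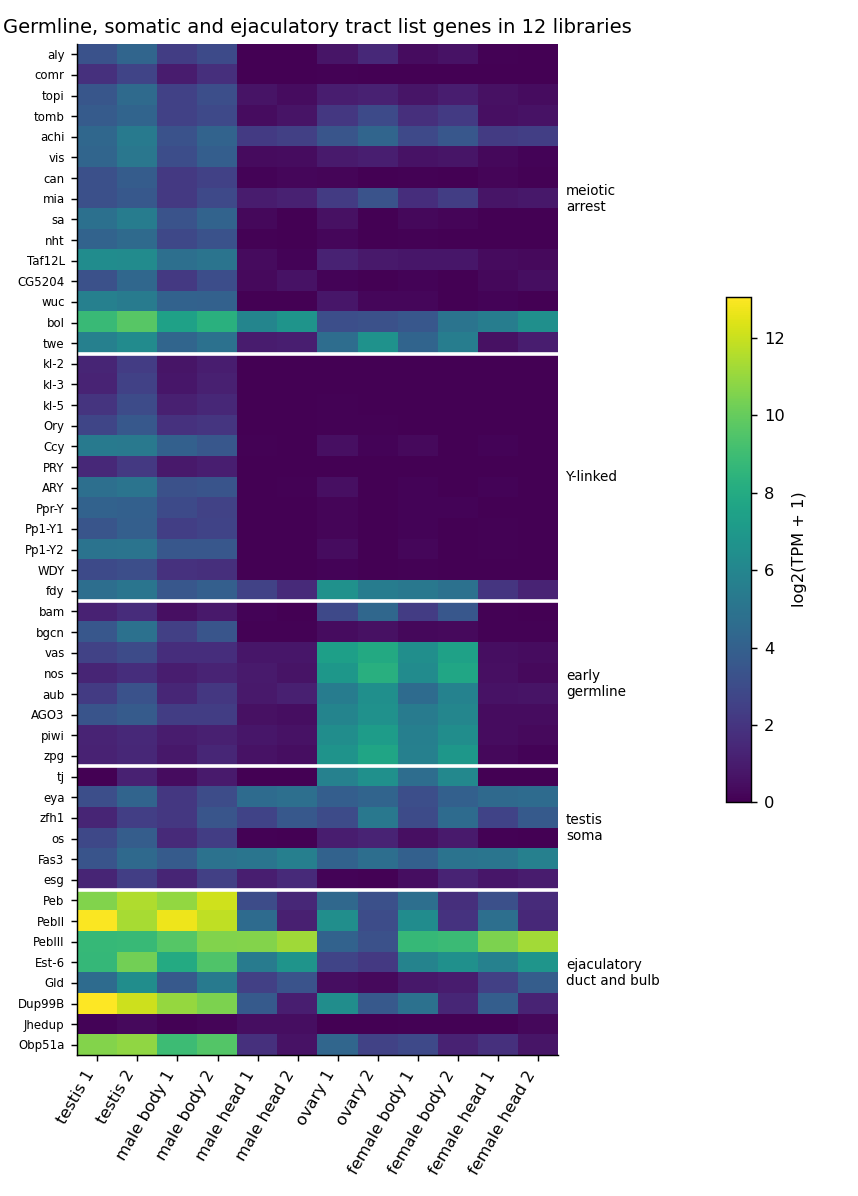
Rows are the genes of the meiotic arrest, Y-linked, early germline, testis soma and ejaculatory duct and bulb lists, columns are the 12 PolyA libraries, and colour is log2(TPM + 1). The meiotic arrest and Y-linked rows are bright in testis, dimmer in male body and dark in most other libraries, whereas most early germline rows are brightest in ovary and female body, as with vas at 165.7 and 242.3 TPM in ovary.

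Of 8 genes of the early germline, 7 had a higher mean in ovary than in testis, a direction that was not tested. Vas, an RNA helicase of germ cells, stood at 5.06 and 7.04 TPM in testis and 165.7 and 242.3 TPM in ovary. Nos, piwi and zpg were between 1.40 and 2.30 TPM in testis and above 84.2 TPM in both ovary libraries, and aub and AGO3 were also higher in both ovary libraries than in testis. Bam, which drives germ cells out of the stem cell state, stood at 1.40 and 2.13 TPM in testis and 6.39 and 19.5 TPM in ovary. Its partner bgcn went the other way, with 10.6 and 28.7 TPM in testis, 4.63 and 10.1 TPM in male body and no more than 0.517 TPM elsewhere (adjusted p = 0.078, and 0.025 with the block). Of 8 genes on this list, limma called 0 higher than all 5 groups, 1 with the block and 1 by unadjusted p-values under 0.05, bgcn each time. Over all genes tested 16.9% were called, and 23.2% with the block. Of 6 genes of the somatic testis cells 1 was called higher, a share near the 16.9% of all genes tested. It was os (the niche ligand Unpaired), with 6.13 and 13.3 TPM in testis and 1.92 and 4.21 TPM in male body (log2 difference 1.37, SE 0.36, adjusted p = 0.026). Tj, of the somatic cyst and follicle cells, was listed at 0 and 1.32 TPM in testis and stood at 53.3 and 93.5 TPM in ovary.

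Genes of the accessory gland gave the largest part of any list. The 26 members summed to 86640 and 63650 TPM in testis and 24650 and 25000 TPM in male body, and all 26 met the 5% rule. Called higher than all 5 groups were 2, Acp29AB and Sems, 11 with the block and 26 with male body left aside. Over all genes tested the same fits called 16.9, 23.2 and 23.7% higher, so the 2 of 26 lie below the background. Acp62F, a protease inhibitor, stood at 6426 and 4022 TPM in testis and 1774 and 1586 TPM in male body. SP, the sex peptide that alters female behaviour after mating, stood at 1310 and 483 TPM in testis and 367 and 163 TPM in male body (adjusted p = 0.43, and 0.012 with the block). Acp98AB differed most between replicates, with 797.5 and 95.8 TPM in testis and 275.2 and 30.5 TPM in male body (adjusted p = 0.66, and 0.023 with the block). Acp36DE, needed for sperm storage, went the other way, with 1259 and 5423 TPM in testis and 637 and 2096 TPM in male body. The lectin-like Acp29AB, lower in level, was called with 121.6 and 156.2 TPM in testis and 50.4 and 69.5 TPM in male body (log2 difference 1.21, SE 0.33, adjusted p = 0.032).

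Genes of the ejaculatory duct and bulb did not share one fraction. Dup99B, a duct peptide related to the sex peptide, stood at 8560 and 4293 TPM in testis and 2015 and 1456 TPM in male body, 23.5 and 33.9%. Est-6, an esterase of the duct, stood at 416.7 and 1223 TPM in testis and 251.1 and 700.0 TPM in male body, 60.3 and 57.2%. Gld, glucose dehydrogenase, was at 51.2 and 48.6%, whereas the bulb genes Peb and PebII were at or above 86.0%. Both Est-6 and Gld were also present in heads. PebIII had more in heads (1449 to 2451 TPM) than in testis (429.3 and 448.8 TPM). Of 7 genes tested, limma called 0 higher than all 5 groups, 0 with the block and 0 by unadjusted p-values under 0.05. With male body left aside 6 were higher, beside 23.7% of all genes tested.

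Several general proteins have a paralog known or listed for use in testis, and 26 such pairs were set beside each other. Per length, the testis paralog stood above its parent gene in both testis libraries in 16 pairs and below it in 10, and it stood below in both ovary libraries in all 26. Of 25 paralogs tested, 18 were called higher than all 5 groups and 23 with the block, beside 16.9 and 23.2% of all genes tested. The exception in level was RpS15Ab, with 19.5 and 24.4 TPM in testis, 80.2 and 62.1 TPM in ovary and its lowest group mean in testis. TrxT, a testis thioredoxin on the X, stood at 1152 and 1254 TPM in testis, 37.1 and 32.2 times the TPM of Trx-2. In ovary its ratio to Trx-2 was 0.0539 and 0.0148. BetaTub85D stood at 14.5 and 8.99 times betaTub56D, and Cyt-c-d, the cytochrome c needed for sperm individualization, at 7.27 and 3.79 times Cyt-c-p. For the cytochrome c oxidase subunit CG10396 against CoIV the ratios were 6.25 and 4.62. Calls gained with the block were TrxT (adjusted p = 0.12, and 0.014 with the block), Cyt-c-d (0.082 and 0.0078), CG10396 (0.13 and 0.048), eIF4G2 (0.34 and 0.0058) and Prosalpha6T (0.059 and 0.023).

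The proteasome is the complex with most such pairs, and its paralogs did not all pass their parents. Prosalpha4T2 stood at 5.98 and 4.25 times Prosalpha4, Prosalpha6T at 4.82 and 3.43 times Prosalpha6, and Rpt3R at 4.05 and 3.63 times Rpt3. Prosalpha3T, at 35.8 and 38.5 TPM (log2 difference to male body 1.52, SE 0.22, adjusted p = 0.0024), stood at 0.263 and 0.227 times Prosalpha3. Among translation genes, eIF4G2 stood at 6.61 and 6.89 times eIF4G and RpL22-like at 1.66 and 1.04 times RpL22. The ribosomal protein gene RpL37b stood at 0.120 and 0.0757 times RpL37a and was still called higher in testis than elsewhere (48.8 and 56.0 TPM, adjusted p = 0.0069). Paralogs and parents share sequence, so part of their reads may be exchanged.

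**Figure D4:**
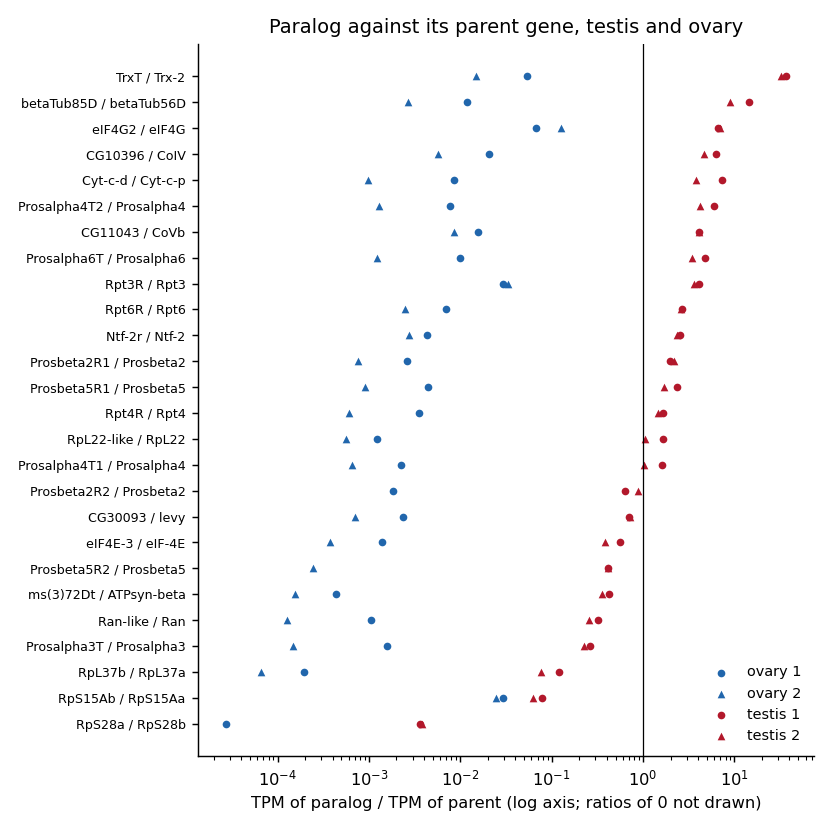
For each of 26 pairs the TPM of the testis paralog divided by the TPM of its parent gene is drawn on a log axis, with red for the testis and blue for the ovary libraries, and circles and triangles for replicates 1 and 2. Red points lie right of the line at 1 in 16 pairs, up to 37.1 for TrxT over Trx-2, and all blue points lie left of it. Ratios of 0 are not drawn.

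Levels of the parents in testis lay below those in ovary, and for most of them below male body. Their testis means were between 5.67 and 57.3% of the mean of the highest other group. Over all 12882 genes tested, 3514 had their lowest group mean in testis, and so did 14 of the 23 distinct parents. For the other 9 it was in female head, as with Prosalpha3 at a mean of 152.5 TPM in testis, 122.6 TPM in male body and 37.6 TPM in female head, and Ran and eIF-4E also had higher means in testis than in male body and heads. Called lower than all 5 groups were 3, Cyt-c-p, ATPsyn-beta and CoVb, and 10 with the block, beside 1.59 and 8.15% of all genes tested. By limma 0 were called higher in either fit, and 0 by unadjusted p-values under 0.05. Trx-2, CoIV, RpL22, betaTub56D and Rpt3 were among the calls gained with the block (adjusted p between 0.060 and 0.48, and between 0.0031 and 0.029 with the block). Both testis libraries stood below the other 10 for 10 parents, against 9.66% of all genes tested. Cyt-c-p stood at 118.5 and 202.1 TPM in testis and between 770 and 4569 TPM elsewhere (-2.60 to the lowest other group, SE 0.69, adjusted p = 0.028).

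Among the genes called lower than all 5 groups, CG7433, Gbs-70E and Gs1 had the largest differences outside shared spans. The lowest other group was male body for 79, ovary for 70 and a head for 56 of the 205 genes, and 92 were at least 4-fold lower. CG7433, a GABA transaminase, stood at 1.46 and 2.41 TPM in testis and between 29.95 and 233.5 TPM elsewhere (-4.14 on the log2 scale to the lowest other group, SE 0.58, limma, adjusted p = 0.0021). Gbs-70E, which ties protein phosphatase 1 to glycogen, stood at 3.08 and 6.69 TPM in testis and at 56.1 TPM or more elsewhere (-3.82, adjusted p = 0.0029). Gs1, a glutamine synthetase, stood at 5.13 and 11.5 TPM in testis and 76.1 TPM or more elsewhere. Both testis libraries were below all other libraries for these 3 genes, as for all 205 genes called lower and for 9.66% of all genes tested.

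Further down the list of the largest differences were Sesn (a stress-response sestrin), l(1)G0334 (a subunit of pyruvate dehydrogenase), fok and Gapdh1. Gapdh1, a glycolytic dehydrogenase, stood at 25.3 and 57.9 TPM in testis and between 340 and 2002 TPM elsewhere (-3.34, SE 0.73, adjusted p = 0.012). The genes in the rest of this paragraph were chosen after their values were seen. GlyP, glycogen phosphorylase, stood at 10.8 and 41.9 TPM in testis and at 138.8 TPM or more elsewhere (-3.33, adjusted p = 0.028). GlyS, glycogen synthase, stood at 4.85 and 15.4 TPM in testis and at 51.7 TPM or more elsewhere (-3.32, adjusted p = 0.018), and Pglym78, phosphoglycerate mutase, at 27.0 and 57.5 TPM and 229 TPM or more. ATPsyn-beta stood at 57.8 and 111.4 TPM in testis and between 656 and 1989 TPM elsewhere (-3.27, adjusted p = 0.0039), and CG1746, the membrane ring subunit of the same enzyme, at 293.8 and 576.7 TPM and between 2410 and 7798 TPM (-2.93, adjusted p = 0.0076).

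SesB, the general ADP/ATP carrier of mitochondria, stood at 137.7 and 271.2 TPM in testis and between 1551 and 5399 TPM elsewhere (-3.48, SE 0.59, adjusted p = 0.0041). Its neighbour Ant2, a second carrier gene on the same strand of the X, went the other way, with 225.1 and 280.7 TPM in testis, 68.2 and 107.2 TPM in male body and no more than 5.33 TPM elsewhere (1.54, SE 0.36, adjusted p = 0.017). The spans overlap, so the division of reads between them is uncertain. The testis-limited genes filled 59.4 and 61.5% of the testis TPM, and mt:ATPase8 filled from 0 to 57.6% of the TPM in the libraries of the other groups. Each such share takes TPM from the remaining genes of its library. Scaled by the median of ratios instead, 496 genes were called lower, 137 of the 205 among them. The effect of these shares on the calls was not tested.

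Genes missing from testis were most often present in heads. In all, 1120 genes had a testis mean under 1 TPM and at least 10 TPM in another group. Of these, 512 (45.7%) reached 10 TPM in heads alone, 240 in bodies alone, 149 in bodies and ovary, 140 in heads and bodies, 57 in ovary alone and 22 in all of them. Male body was at 10 TPM or more for 355 (31.7%), between 1 and 10 for 434 and under 1 for 331. In both testis libraries 75 genes were listed at 0. The 1120 include 33 genes on shared spans, where a low value can be the division of reads. By testis mean, CG34348 (0.9997 TPM), Mct1 (0.9993 TPM) and Cad87A (0.9993 TPM) were just inside the limit and CG42674, Lin29 and Uro (1.002 TPM) just outside it.

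Genes of photoreceptors were among the highest missing genes. Rh3, an ultraviolet rhodopsin, stood at 0.983 and 0.537 TPM in testis and between 666 and 953 TPM in the 4 head libraries. Trp and trpl, the light-gated channels, and CG11458 and CG3088 had the same distribution, with at most 1.82 TPM outside heads. Rh4, another ultraviolet rhodopsin, was not missing. It stood at 5.904 and 7.502 TPM in testis, 2.25 and 2.96 TPM in male body, 38.1 and 39.5% of testis, and at most 1.02 TPM in the other libraries without heads. Its value in heads was between 299.9 and 402.6 TPM.

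Of other tissues, osk, the pole plasm organizer of the oocyte, stood at 1.09 and 0.717 TPM in testis, 417 and 1225 TPM in ovary and 1.51 and 3.77 TPM in male body. Psd, an eggshell gene, had the same distribution. Fln (flightin), of flight muscle, stood at 0.559 and 0.960 TPM in testis and 179 and 1406 TPM in male body. CG16826 was listed at 0 in both testis libraries and stood at 934 and 2913 TPM in male body. The ribosomal RNA mt:lrRNA was listed at 0 in every library except ovary 2, where it stood at 21390 TPM.

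Lists for other cell types show what else the testis samples held. Of the gut (13 genes), fat body (7), eye (13), neuron (8) and follicle cell (10) lists, limma called 0 genes higher and 0 lower than all 5 groups, and 0 by unadjusted p-values under 0.05. A gene near absent in another group as well can hardly be called lower than all 5. The counts of 0 lower therefore say little about these cell types, and the levels are given instead. With the block 1 of the 13 eye genes was lower, beside 8.15% of all genes tested. For the gut list the summed level was 115.4 and 63.77 TPM in testis and 5340 and 26850 TPM in male body, and for the fat body list 48.2 and 26.8 TPM and 394 and 791 TPM. The eye list summed to 48.8 and 43.7 TPM in testis and 53.5 and 36.5 TPM in male body, and 6 of its genes were missing from testis. The 10 follicle cell genes (vitelline membrane and chorion) summed to 74.8 and 44.2 TPM in testis, a median of 0.121% of the highest other group. Of them 9 had their lowest mean in testis, beside 3514 of all 12882 genes tested. All 10 follicle cell genes had a testis mean above 1 TPM, so 0 were missing by the rule. Of 11 muscle genes, Tm1, a tropomyosin, was called lower, with 63.1 and 128.6 TPM in testis and 296.8 TPM or more elsewhere. Of 8 neuron genes, 4 were missing, Syt1 (0.757 and 0.872 TPM in testis) among them. Of 9 oocyte and nurse cell genes grk, the ligand that patterns the egg, was called lower, with 0.896 and 2.10 TPM in testis. It stood at 19.99 and 27.49 TPM in ovary, but also between 5.65 and 15.04 TPM in the male body and head libraries. The call therefore rests on those groups too and says little about oocyte RNA. Of 5 tested chemosensory genes Obp99a, an odorant-binding protein, was called higher (195.0 and 252.3 TPM in testis, 58.6 and 97.2 TPM in male body, log2 difference 1.54, SE 0.44, adjusted p = 0.035). Over all genes tested 16.9% were called higher and 1.59% lower, so 1 of 5 higher lies near the background.

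A gene present in every other group and missing from testis was the exception. It held for 7 genes, of which CG12016, CR44097, CG45085 and Ppcdc lie on shared spans. Mal-B2, a maltase, stood at 0.604 and 1.31 TPM in testis and between 15.6 and 55.1 TPM in all others (-3.28, SE 0.52, adjusted p = 0.0032). CG6293 stood at 0.435 and 0.188 TPM in testis (adjusted p = 0.010), and CG6126 at 0.380 and 0.874 TPM (adjusted p = 0.0067).

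The 2249 limited genes also shared features that the rule did not use, given here as descriptions. Of those with an annotation, 14.7% were non-coding RNAs, beside 6.82% of all genes tested, and 39.2% had a single exon, beside 17.6%. Their median span was 1070 bases, beside 2170. They had no given name, only a CG or CR number, in 83.2% of cases, beside 54.7%. On the X lay 12.9% of them, beside 16% of the genes tested, and on 2L 24.7%, beside 19.2%. The share called higher was 14.9% on the X, 21.5% on 2L, 15.5% on 2R, 17.4% on 3L, 15.5% on 3R and 6.32% on chromosome 4. Of the missing genes, 20.9% were on the X and 2.53% were non-coding.

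Spermatocyte genes of Drosophila are known for short promoters with motifs close to the start of the transcript. The 7 letters CNAAATT, a motif described near the start of such genes, were searched in the first 100 bases of each gene on its own strand, with overlapping matches counted once per gene. They occurred in 21.1% of 2246 limited genes, 3.84% of 1119 missing genes, 7.01% of 9461 other genes tested and 8.49% of all 17453 genes with a window. On the opposite strand the shares were 8.99, 3.57, 7.07 and 6.19% in the same order, and in the 100 bases before the start they were 8.50, 4.83, 5.06 and 5.52%. In the spermatid list 14 of 27 genes (51.9%) held it, in the meiotic arrest list 0 of 15 and in the accessory gland list 1 of 26. The position used most often among the limited genes was base 35, in 17 genes.

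**Figure D5:**
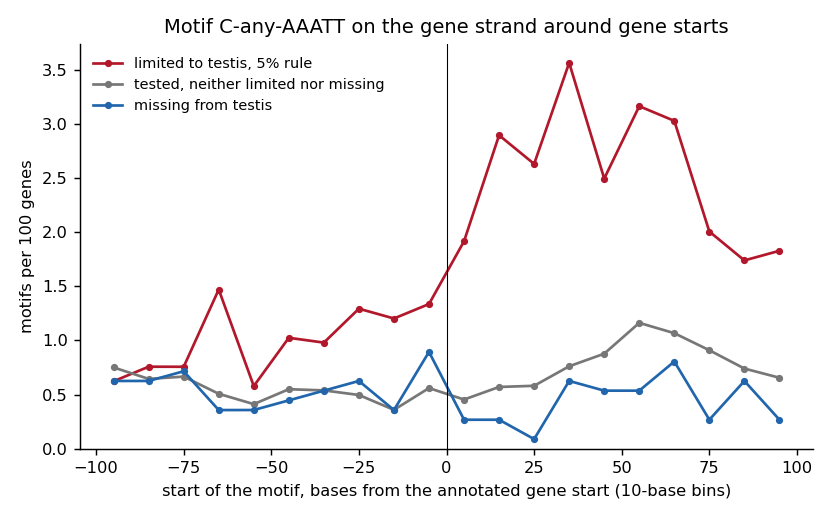
The y axis gives the number of CNAAATT matches on the gene strand per 100 genes in bins of 10 bases, and the x axis the start of the match relative to the annotated gene start. The red line (limited to testis by the 5% rule) rises downstream of the start and peaks near base 35, while the grey line (other genes tested) and the blue line (missing from testis) stay lower throughout the first 100 bases.

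To show the motif in place, the 8 genes with the highest testis means were taken among those of chromosomes X, Y and 4 and arms 2L, 3L and 3R in which it started between bases 20 and 40. A start there was found in 142 of 2246 limited genes (6.32%), 0.804% of missing and 1.38% of other tested genes, so most limited genes lack it. Each line gives 30 bases of dm6 on the gene strand, read from the RefSeq Release 6 genome, with the first match from base 20 on in capitals.
Mst84Da: atagttaacacCTAAATTttcggttccttt
CG9920: catcgttcttcCAAAATTaaaaaaaaatta
CG32388: acttatattacCAAAATTtctgttaaaatt
Mst98Ca: ccgaataacttCCAAATTgaacagtaaaaa
CG10252: aatattgggttCTAAATTttcaaaatagat
CG31468: ttttagagtttCAAAATTttacatatttct
dj: tgtggttttttCAAAATTctttgtaaaact
CG17344: caatttcggtcCGAAATTcaaaattcaaaa

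The Mst84Da window is at chr3R:7365865-7365894 on the plus strand, with the motif at base 27 of a gene at 4614 and 2787 TPM in testis. The dj window is at chr3R:7059337-7059366 on the plus strand (base 34) and the Mst98Ca window at chr3R:28291363-28291392 on the plus strand (base 37, 1286 and 1985 TPM). The windows of CG9920 (chr3R:14098034-14098063, base 29, 2461 and 2555 TPM) and CG32388 (chr3L:6984531-6984560, base 38, 1846 and 1742 TPM) are on the minus strand, as are those of CG10252 (chr3R:23696195-23696224, base 33, 1623 and 1538 TPM) and CG31468 (chr3R:23700305-23700334, base 32, 1603 and 924 TPM). The window of CG17344 is at chr2L:19102063-19102092 on the plus strand (base 31, 1055 and 1056 TPM). It holds a further match, in small letters, directly after the capitals. With the block CG32388 (adjusted p = 0.25, and 0.035 with the block), CG31468 (0.32 and 0.014) and CG17344 (0.22 and 0.032) were also called higher.

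Motifs of general promoters were distributed differently. TATCGATA, the DRE motif of housekeeping genes, was searched on both strands from 250 bases before to 50 bases after the start and occurred in 1.87% of limited, 2.59% of missing and 12.8% of other tested genes, with 7.67% of all genes. TATAAA, searched on the gene strand from 50 to 11 bases before the start, occurred in 5.92% of limited, 15.7% of missing and 6.05% of other tested genes, with 8.81% of all genes. In the accessory gland list 6 of 26 genes held TATAAA, beside 1 of 27 in the spermatid list. TCAGT, of the initiator, searched on the gene strand within 10 bases of the start, occurred in 5.70% of limited, 21.3% of missing and 10.8% of other tested genes, with 10.1% of all genes.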

How the data were processed

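The 12 PolyA libraries were sequenced by the authors as paired ends after poly(A) selection of DNase-treated RNA. Per the labels and the submitters' processing notes, reads were trimmed with cutadapt (1.15 and 1.18), aligned to dm6 with STAR 2.6.1a and quantified with StringTie 2.0 on Ensembl release 88 genes. The deposited tables give TPM, FPKM and coverage per gene, as the authors' program scaled them. TPM values keep no depth. FPKM served as an alternative and the deposited coverage for library size.

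Genes with a mean of at least 1 TPM over the 12 libraries (12882 of 17559) were fitted with limma 3.58.1 in R 4.3.3 on log2(TPM + 1), with a mean for each of 6 groups and a trend in the prior variance. A gene was called when all 5 differences between testis and the other groups had the same sign and the largest of the 5 p-values, Benjamini-Hochberg adjusted over all genes tested, was under 0.05. The size given is the difference to the nearest group. Fold changes on this scale understate those of low genes. In simulated data of 12882 genes with 200 changed, 22 of 100 genes raised 4-fold and 83 of 100 raised 16-fold were recovered, with 2 false calls. The simulated spread was independent between libraries, no gene was lowered, and far fewer genes were changed than were called in the data. The rates of recovery therefore need not hold for the data. Values listed at 0 can be failed estimates.

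The replicate numbers pair the libraries: deviations from the group means correlated between same-numbered libraries in 15 of 15 pairs of groups (r from 0.345 to 0.769 over the 12882 genes). The fit with the block is given where it changed a call of a gene described or moved a count by over 1.5 times. It also called dila higher and Mct1, Lin29 and CG42674, named only for their place at a limit, lower.

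Named genes were the 10 largest differences in each direction, the 10 limited genes (male body aside) of highest testis level, the 10 missing genes of highest level elsewhere, the 5 highest and 5 lowest male body fractions among limited genes at 100 TPM or more, the members of the 16 lists (209 of 210 entries matched) and the 3 genes on either side of each limit. The genes of the 5% rule and the band limits of the fractions were named outside it, after their values were seen. The members and lists were chosen with earlier results of these data known. Gene starts came from the deposited tables, and biotypes and exons were joined by gene ID from Ensembl release 115 (17253 IDs matched). Sequence of chromosome arm 2R was searched but is not printed. Tables were made with Python 3.11.15, pandas 2.3.3, numpy 2.4.6 and matplotlib 3.10.9.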

Additional observations from a re-analysis of the deposited data

How the results depend on the processing

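Genes called higher in testis than in all 5 groups were 2179, and 5 with a pseudocount of 0.1, 1422 with a mean of at least 5 TPM, 1387 without mitochondrial genes and 3519 after median of ratios scaling. Leaving out a library gave 1034 to 2221. Genes called lower were 205, and 27 with a pseudocount of 0.1, 949 on FPKM, 1221 without mitochondrial genes, 496 after median of ratios scaling, 1289 after quantile normalization, 1050 with the replicate block and 602 with male body left aside. Leaving out a library gave 49 to 203, with 86 without male head 2, 89 without female head 2, 118 without male body 2, 119 without female head 1, 122 without male head 1 and 131 without ovary 2. Of the 2179 and 205 genes, all 2179 and all 205 were called with the block. The median difference between testis and the other groups over all genes moved on the log2 scale by 0.32 with median of ratios, -0.43 without mitochondrial genes and -0.44 with quantile normalization, and the cause of the changed counts was not tested.

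The strict rule gave 3 genes, 5 after quantile normalization, 1 when both libraries had to meet it and 1 to 10 without a library. The rule with male body left aside gave 1476 genes, 685 after quantile normalization, 169 at an absence limit of 0.1 TPM, 2249 under the 5% rule and 1215 to 1786 without a library. Missing genes were 1120, 219 at an absence limit of 0.1 TPM and 1024 to 1438 without a library. The median male body fraction was 35.34%, 37.76% on FPKM, 46.1% without mitochondrial genes, 30.55% with median of ratios, 29.73% with quantile normalization and 30.06 to 40.38% without a library. For 56 named genes that were called, 1033 of the fits kept the call, 189 lost it and 0 reversed it, and the block changed none of the 56. With 2 libraries a group and TPM alone, depth per gene is unknown. Genes raised 4-fold were mostly not recovered in simulated data with 200 changed genes. That rate need not hold for these data, in which 2179 genes were called higher.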
